A study of Mus musculus with 44 samples.

Results

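The AP-1 and ATF transcription factors described here are 10 genes of the basic leucine zipper (bZIP) class, chosen by gene symbol from the 24940 genes listed in each count table: the Fos genes Fos, Fosb, Fosl1 and Fosl2, the Jun genes Jun, Junb and Jund, the Batf genes Batf and Batf2, and Atf3. All 10 were found, with the same RefSeq transcript in all 4 tables. Poly(A) RNA of mouse bone marrow-derived macrophages (BMDMs) was sequenced in 44 libraries, which fell into 22 groups of 2 libraries each, all from mice of the C57BL/6 background. The study asked how the nuclear receptor corepressor NCoR, encoded by Ncor1, takes part in signal-dependent gene activation.

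The NCoR table held 12 groups. Cells carrying NCoR flox/flox (WT) or NCoR flox/flox with LysM-Cre (NKO) were treated for 6 h with vehicle, with KLA (Kdo2 lipid A, a TLR4 agonist), poly I:C (a TLR3 agonist), IFNβ or IL4, or for 12 h with RANKL. LysM-Cre drives deletion in myeloid cells and sits in the Lyz2 gene. The RGFP966 table held wild-type cells with vehicle, KLA, or KLA with the HDAC3 inhibitor RGFP966. The Pgc1b table held Pgc1b flox/flox cells without or with LysM-Cre, each with vehicle or KLA. The TBK1i table held wild-type cells with vehicle or KLA, both labelled DMSO, or KLA with a TBK1 inhibitor. Vehicle and KLA lasted 6 h in each of these tables. Per the paper, both inhibitors were added together with the serum starvation, which lasted 12 h before KLA. No group had an inhibitor without KLA, so the effect of an inhibitor on resting cells was not measured. The column names call the RANKL-treated cells osteoclasts whereas the labels call them BMDMs. Nothing states that the libraries of a group came from separate animals, so p-values measure the spread between these libraries, which may be technical.

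As background, AP-1 is a dimer of bZIP proteins, in which a leucine zipper joins 2 proteins and the adjoining basic region contacts DNA. Fos proteins do not form stable homodimers and pair with Jun proteins, which can also pair with each other. The dimers bind the AP-1 site, whereas ATF and CREB proteins prefer the related cyclic AMP response element (CRE). Batf and Batf2 lack the transactivation domain of Fos, pair with Jun proteins and can bind together with interferon regulatory factors at composite sites. Atf3 is a stress-induced member known to dampen Toll-like receptor responses, and in the osteoclast lineage Fos is essential for differentiation.

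In mm10, as the tables give them, Fos (chr12:85473890-85477274, +) and Batf (chr12:85686720-85709087, +) lie on chromosome 12, Fosl1 (chr19:5447698-5455938, +) and Batf2 (chr19:6164439-6172475, +) on chromosome 19, and Junb (chr8:84976909-84978748, -) and Jund (chr8:70697739-70700616, +) on chromosome 8. Fosb (chr7:19302696-19310045, -), Fosl2 (chr5:32136472-32157839, +), Jun (chr4:95049036-95052222, -) and Atf3 (chr1:191170297-191183333, -) each lie on a chromosome with no other member.

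The promoters of Fos, Jun, Junb and Atf3 are shown. Fos and Jun are themselves classical targets of bZIP dimers. RefSeq windows on GRCm38.p6 (the assembly of mm10) were matched for 8 of the 10 members by symbol. Fosl1 and Batf2 had no entry, and the windows of Fosb, Fosl2, Jund and Batf are not shown. Each sequence is the 150 bases before the annotated start, 5′ to 3′ on the gene's strand, and capitals mark the CRE core TGACG (or CGTCA on the other strand), the CRE-like TGACATCA, the CCAAT box and the TATA box TATAAA. The windows are chr12:85473740-85473889 (+) for Fos, chr4:95052223-95052372 (-) for Jun, chr8:84978749-84978898 (-) for Junb and chr1:191183334-191183483 (-) for Atf3.
Fos: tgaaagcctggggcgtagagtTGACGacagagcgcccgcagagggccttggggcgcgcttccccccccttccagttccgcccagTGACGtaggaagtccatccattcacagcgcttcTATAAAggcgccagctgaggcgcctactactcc
Jun: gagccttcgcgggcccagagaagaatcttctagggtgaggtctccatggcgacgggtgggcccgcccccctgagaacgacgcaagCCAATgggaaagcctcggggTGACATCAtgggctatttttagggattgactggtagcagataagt
Junb: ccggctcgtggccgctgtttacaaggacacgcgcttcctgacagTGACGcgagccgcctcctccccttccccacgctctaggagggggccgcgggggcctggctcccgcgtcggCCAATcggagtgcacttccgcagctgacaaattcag
Atf3: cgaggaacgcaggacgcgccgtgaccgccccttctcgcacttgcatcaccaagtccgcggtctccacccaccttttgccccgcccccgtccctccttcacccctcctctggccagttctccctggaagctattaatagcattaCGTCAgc
Over the 250 bases before the start, searched on both strands, TGACG was present in 5 of the 8 members (Fos, Fosb, Junb, Batf and Atf3) and in 17.8% of all 32851 windows. TGACATCA was present in Jun, where it began 45 bases before the start, and in 2.93% of all windows. The full CRE TGACGTCA, which contains TGACG, was in 1.55% of all windows and the AP-1 site TGACTCA in 4.46%, and neither was in any of the 8. The letters GAAA, any 2 bases and GAAA, which interferon response elements carry, were in the Fosl2 window among the members and in 2.98% of all windows. In the 150 bases before the start, Fosl2 and Jund held none of the marked letters. A match is a description of letters and not of binding.

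Depth was 8.32 to 16.8 M gene counts per library, so that 3 counts, taken as the limit of detection, corresponded to 0.179 to 0.36 CPM (counts per M counts, scaled by TMM within a table). All 7 macrophage markers exceeded 1 CPM in every group. The 6 neutrophil markers summed to 650 CPM in WT RANKL and 972 CPM in NKO RANKL, against 1.23 to 21.4 CPM in the other 20 groups. The 6 osteoclast markers summed to 158 CPM in WT RANKL and 959 CPM in WT vehicle. Of these markers 5 exceeded 1 CPM in WT RANKL and 4 in WT vehicle, so the sums do not describe every marker. Ncor1 was 1.41 to 1.78 lower on the log2 scale in NKO than in WT libraries in all 6 treatments. Ppargc1b, which encodes PGC1β, was not lower in the libraries labelled Pgc1b_flox_Cre (3.75 and 3.41 CPM against 4.38 and 2.88 CPM under vehicle, 10.3 and 8.74 against 7.81 and 6.78 CPM with KLA). Lyz2, the Cre locus, was 0.90 and 0.87 lower on the log2 scale in them. The Ppargc1b count covers a whole transcript, so it cannot show whether a deleted part was missing. The paper examined PGC1β protein in BMDMs of both genotypes by immunoblot. The date stamp in the library names of WT KLA was 115 days before that of WT vehicle, that of NKO KLA a further 1401 days before, and that of both RANKL groups 536 days before the vehicle groups. In 10 libraries, those of the Pgc1b table and NKO KLA, Y-linked counts were at least 578 and Xist counts at most 1. In the other 34 libraries, which include WT KLA, Y-linked counts were at most 5 and Xist counts at least 5206. Both genotypes of the vehicle, poly I:C, IFNβ and IL4 groups shared 1 stamp. Genotype, stamp and the difference in Xist and Y-linked counts therefore cannot be told apart in NKO KLA against WT KLA. Nor can treatment and stamp in WT KLA or RANKL against vehicle. RANKL lasted 12 h and vehicle 6 h, so duration cannot be told apart from RANKL either. In bulk samples, fewer cells of a type and less RNA per cell cannot be told apart.

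Levels of the 10 genes spanned several orders of magnitude per length. In WT vehicle libraries, in CPM per kilobase of transcript, Atf3 was highest at 234, followed by Junb at 99.8, Jund at 90.0 and Fos at 81.8, whose libraries overlapped between neighbours in that order. Jun at 32.2, Fosl2 at 6.38, Batf2 at 5.77 and Batf at 2.33 followed without overlap. Fosl1 at 0.666 and Fosb at 0.1 were lowest. After KLA the order was different, with Junb at 387, Atf3 at 300, Batf2 at 175, Jund at 130 and Batf at 100, whereas Fos at 24.5, Fosl2 at 22.4 and Jun at 17.9 were below them. Fosb, a Fos paralogue, did not reach 5 CPM in any of the 22 groups, and Fosl1 reached it in 2, both with RANKL. In 10 groups, 7 of them with KLA, both libraries had 3 or fewer Fosb counts.

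**Figure D1:**
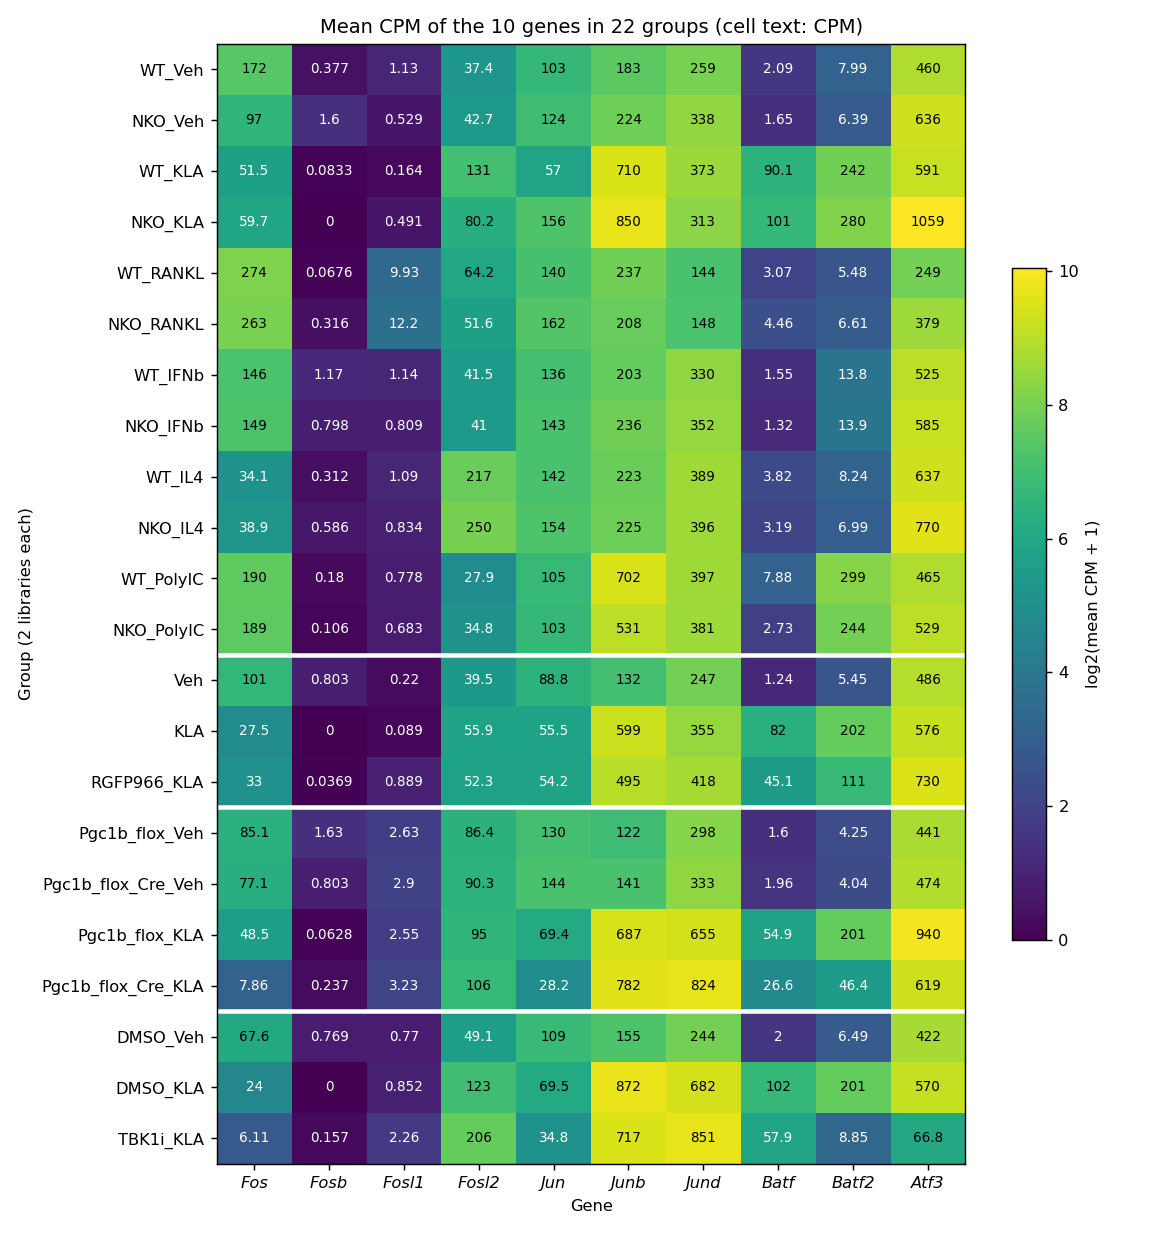
Mean CPM (TMM within each table, n = 2 libraries per group) of the 10 genes (columns) in the 22 groups (rows), coloured by log2(CPM + 1) with the CPM in each cell, and white lines between the 4 tables. Batf and Batf2 are dark in every vehicle row and bright in the KLA rows, apart from Batf2 at 8.85 CPM with the TBK1 inhibitor, and Fosl2 is brightest in the IL4 rows.

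KLA raised Batf, Batf2 and Junb and lowered Fos and Jun in all 4 sets of libraries from cells without a perturbation, sets that shared no library. A gene was called when edgeR's quasi-likelihood F-test gave a Benjamini-Hochberg adjusted p below 0.05 with a fold change above 1.5. With KLA, 4 members were called higher and 3 lower of 10 in the NCoR table, where 25.4% of all genes tested were called higher and 32.3% lower. The corresponding counts were 3 and 3 of 9 in the RGFP966 table (27.9 and 32.2% of genes, with Fosl1 not tested), 5 and 3 of 10 in the Pgc1b table (22.8 and 25.7%) and 5 and 3 of 10 in the TBK1i table (29.6 and 29.3%). So large a share of all genes moved with KLA that the count of members called is near that background in the direction of lower levels and somewhat above it in that of higher levels.

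The summed markers of other cells moved as well: from vehicle to KLA the stromal markers went from 92.1 to 0.165 CPM in the NCoR table, 50.9 to 45.3 CPM in the TBK1i table and stayed under 2 CPM in the others, and the osteoclast markers went from 959 to 237 CPM in the NCoR table and fell to 319 to 392 CPM from 835 to 1340 CPM in the others. Of the 6 osteoclast markers 4 exceeded 1 CPM in WT vehicle and 5 in WT KLA, so the sums do not describe every marker. The part of these markers in the values below was not tested.

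Batf had the largest increase among the members in 3 of the 4 sets. Its WT vehicle libraries were at 2.00 and 2.19 CPM and its WT KLA libraries at 86.8 and 93.5 CPM, a log2 difference of 5.42 ± 0.17 (SE; adjusted p = 2.34e-34, edgeR). The increase was 6.03 ± 0.14, 5.11 ± 0.38 and 5.67 ± 0.12 on the log2 scale in the RGFP966, Pgc1b and TBK1i tables. Vehicle and KLA libraries of Batf were far apart in each set, with the highest vehicle library at 2.19 CPM and the lowest KLA library at 51.5 CPM. Batf2 was at 7.43 and 8.55 CPM in WT vehicle and at 249 and 235 CPM in WT KLA libraries, a log2 difference of 4.92 ± 0.09, and the other sets gave 5.21, 5.54 and 4.95. Junb, which often restrains Jun-driven transcription, was already abundant and rose from 168 and 199 CPM to 721 and 700 CPM in WT cells (log2 difference 1.95 ± 0.06), and by 2.18, 2.50 and 2.49 in the other sets.

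Fos and Jun moved the other way. Fos libraries were at 158 and 186 CPM in WT vehicle and at 52.6 and 50.5 CPM in WT KLA, so that Fos fell by 1.74 ± 0.07 on the log2 scale (adjusted p = 3.2e-30, edgeR). Fos fell by 1.88, 0.81 and 1.49 in the RGFP966, Pgc1b and TBK1i tables. Jun libraries were at 94.2 and 111 CPM in WT vehicle and 52.2 and 61.8 CPM in WT KLA, and Jun fell by 0.85 ± 0.09, 0.68 ± 0.08, 0.90 ± 0.09 and 0.65 ± 0.06 in the 4 sets. No KLA library of Fos or Jun reached the vehicle libraries of its own set. The fall of Jun in the RGFP966 table was 0.55 without KLA replicate 2, under the fold threshold. Fosb had 20 and 13 counts in vehicle and none in KLA libraries of the RGFP966 table, which is at least 3.01-fold lower against a floor of 3 counts per library, and was at least 2.27-fold lower in the TBK1i table, where the KLA libraries again had none. In the Pgc1b table a total of 44 counts in vehicle faced 1 in KLA libraries, a ratio of 28.4 with an exact 95% interval of 4.84 to 1146 for counting error.

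The other members differed between sets. Fosl2 rose from 36.9 and 37.8 CPM to 124 and 138 CPM in WT cells (1.81 ± 0.07) and from 48.4 and 49.8 CPM to 123 and 124 CPM in the TBK1i table (1.33 ± 0.06), but its log2 difference was 0.50 ± 0.08 in the RGFP966 table and 0.14 ± 0.09 in the Pgc1b table, both under the fold threshold. Jund was called in the Pgc1b (1.14 ± 0.12) and TBK1i (1.48 ± 0.04) tables and had 0.53 and 0.52 in the NCoR and RGFP966 tables. Atf3 was called in the Pgc1b table, from 433 and 448 CPM to 942 and 939 CPM (1.09 ± 0.06), and had 0.36, 0.24 and 0.43 in the NCoR, RGFP966 and TBK1i tables, under the fold threshold. Whether these differences between tables exceed their error was not tested. Fosl1 was at 17 and 16 counts in WT vehicle and 2 and 0 counts in WT KLA libraries, a ratio of 6.85 (exact 95% interval 1.75 to 58.9), and this call was lost without WT_KLA replicate 2 (adjusted p = 0.0714, edgeR). In the Pgc1b and TBK1i tables Fosl1 was at 0.02 ± 0.46 and 0.14 ± 0.56 with KLA, its libraries overlapped, and it was not called.

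**Figure D2:**
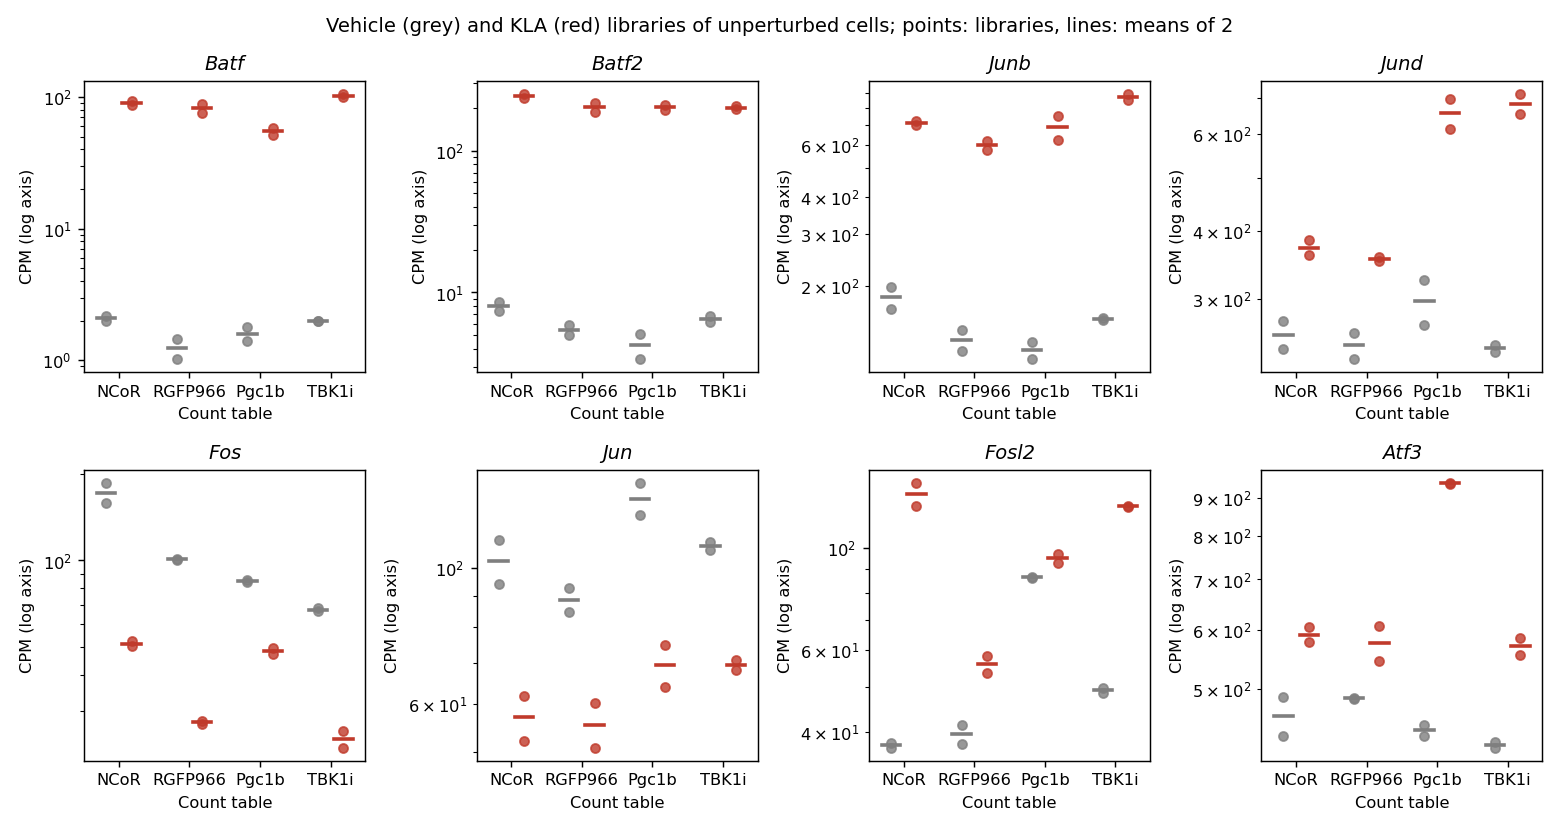
CPM (log axis) of 8 members in the vehicle (grey) and KLA (red) libraries of unperturbed cells in the 4 count tables, with a point per library and a line at the mean of 2. Batf, Batf2 and Junb lie higher and Fos and Jun lower with KLA in each table, whereas Fosl2 with KLA ranges from a mean of 55.9 CPM in the RGFP966 table to 131 CPM in the NCoR table.

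These directions were taken with TMM scaling. Scaling by library totals, an alternative added after the data were seen, lowered the log2 differences of the KLA comparisons by 0.69 to 0.78, or by less for the few counts of Fosb, and of poly I:C against vehicle by 0.64. The share of called genes that were higher then fell from 44 to 50.2% to 18.6 to 20.8% in the 4 KLA comparisons, and from 47 to 20.3% for poly I:C. Batf, Batf2, Junb, Fos and Jun kept their direction and call with KLA. The calls of Jund and Atf3 in the Pgc1b table and of Fosl2 in the TBK1i table were lost (0.44, 0.40 and 0.55). Atf3 was then lower in the NCoR, RGFP966 and TBK1i tables (-0.37, -0.52 and -0.34), Jund was lower in the NCoR and RGFP966 tables (-0.20 and -0.25), and Fosl2 was lower in the RGFP966 and Pgc1b tables (-0.27 and -0.56).

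Poly I:C raised Batf2, Junb and Batf. With poly I:C 4 members were called higher and 0 lower of 10 (22.2 and 25% of all genes). Batf2 libraries reached 292 and 306 CPM, 5.22 ± 0.09 above vehicle on the log2 scale and the highest group mean of Batf2 in the series. Junb reached 732 and 672 CPM (1.94 ± 0.06). Batf reached only 10.0 and 5.77 CPM (1.91 ± 0.25), well under its KLA libraries. Fos was at 193 and 187 CPM and Jun at 104 and 105 CPM, near their vehicle libraries, and neither was called (0.15 ± 0.06 and 0.03 ± 0.08). These values depended on the scaling, since with library totals both turned, to -0.50 for Fos and to -0.62 for Jun. Jun was then called lower, as were Fosl1 (-1.17), Fosl2 (-1.07) and Atf3 (-0.63). With TMM Fosl2 was at -0.42, under the fold threshold, and its mean of 27.9 CPM was its lowest group mean in the series. Jund was called at 0.62 ± 0.06, but it missed the fold threshold without WT_Veh replicate 1 or WT_PolyIC replicate 1 (0.53 and 0.55) and turned to -0.027 with library totals.

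With IFNβ on its own 1 of 10 members, Batf2, was called higher and 0 lower (4.09 and 2.37% of all genes). Batf2 rose from 7.43 and 8.55 to 12.3 and 15.2 CPM (0.77 ± 0.12, adjusted p = 1.06e-06, edgeR). In a direct comparison, poly I:C libraries exceeded IFNβ libraries by 4.45 ± 0.08 for Batf2, 2.34 ± 0.27 for Batf and 1.79 ± 0.06 for Junb. In that comparison 3 members were called higher and 1 lower (20.5 and 21.5% of all genes). The latter was Fosb, at 1 and 2 against 10 and 23 counts, a ratio of 6.33 (exact 95% interval 1.99 to 32.3), and its call was lost without WT_IFNb replicate 2 or WT_PolyIC replicate 1 (adjusted p = 0.161 and 0.0869, edgeR).

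IL4, which drives alternative macrophage activation, raised Fosl2 and lowered Fos. Of 10 members 3 were called higher and 1 lower (6.63 and 6.46% of all genes). Fosl2 rose from 36.9 and 37.8 CPM to 219 and 214 CPM (2.53 ± 0.07, adjusted p = 1.07e-39, edgeR), and the IL4 groups of WT and NKO held its 2 highest means in the series. Fos fell to 34.4 and 33.8 CPM, by 2.33 ± 0.07. Neither gene's IL4 libraries overlapped the vehicle libraries. Batf (0.86 ± 0.27) and Jund (0.59 ± 0.06) were also called. The Batf call was lost without WT_Veh replicate 1 or WT_IL4 replicate 1 (adjusted p = 0.0564 and 0.194, edgeR), and Jund was under the fold threshold without either (0.50 and 0.53).

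RANKL at 12 h was the treatment in which Fosl1 was detected above 5 CPM. The vehicle libraries set against RANKL were from 6 h. Of 10 members 3 were called higher and 2 lower (24.1 and 19.8% of all genes). Fosl1, a Fos-related gene that acts downstream of Fos in osteoclast precursors, rose from 1.17 and 1.10 to 9.75 and 10.1 CPM (3.12 ± 0.26). Fos reached 282 and 265 CPM, its highest group mean in the series, and its increase of 0.67 ± 0.06 was 0.56 without WT_Veh replicate 1, under the fold threshold. Fosl2 rose by 0.78 ± 0.07. Atf3 fell from 487 and 433 to 252 and 247 CPM (by 0.88 ± 0.05), and Jund fell by 0.85 ± 0.07. The neutrophil markers given above were higher in the same libraries, as were the stromal (206 against 92.1 CPM in WT vehicle), dendritic cell (4.54 against 0.618 CPM) and lymphocyte markers (2.74 against 0.171 CPM), and the macrophage markers were lower (4385 against 8116 CPM). Their part in these values was not tested.

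Deletion of NCoR under vehicle lowered Fos. Fos libraries were at 158 and 186 CPM in WT and at 98.5 and 95.4 CPM in NKO, so that Fos fell by 0.83 ± 0.06 (adjusted p = 1.32e-17, edgeR). Of 10 members 1 was called higher and 1 lower (2.4 and 3.8% of all genes). The other was Fosb, with 4 and 7 counts in WT and 28 and 21 in NKO libraries, and this call was lost without WT_Veh replicate 1 or NKO_Veh replicate 1 (adjusted p = 0.0938 and 0.14, edgeR). Atf3 was at 487 and 433 CPM in WT and 619 and 653 CPM in NKO libraries, without overlap, and its log2 difference of 0.47 ± 0.05 was under the fold threshold.

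In each of the other 5 treatments the Fos levels of WT and NKO libraries differed by less than the fold threshold. With poly I:C they were at 193 and 187 against 189 and 190 CPM, with IFNβ at 144 and 147 against 144 and 154 CPM, and with RANKL at 282 and 265 against 262 and 263 CPM. With KLA they were at 52.6 and 50.5 against 62.4 and 57 CPM and with IL4 at 34.4 and 33.8 against 39.9 and 38.0 CPM. In these treatments, KLA and IL4, the NKO libraries lay higher without overlap (0.21 and 0.19 on the log2 scale). The difference between the NKO effect in a treatment and that under vehicle was tested as an interaction. For Fos it was called in all 5 treatments, at 1.04 ± 0.10 for KLA, 0.82 ± 0.08 for poly I:C, 0.86 ± 0.08 for IFNβ, 1.02 ± 0.10 for IL4 and 0.77 ± 0.08 for RANKL. These 5 tests share the 4 vehicle libraries, so they are not independent of each other. The interaction was called higher for 3 and lower for 2 of 10 members with KLA (19.9 and 17% of all genes), for 1 and 1 with poly I:C (2.13 and 1.1%), for 1 and 0 with IFNβ (0.552 and 0.0522%), for 1 and 0 with IL4 (0.351 and 0.254%) and for 3 and 0 with RANKL (7.26 and 6.97%).

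Under KLA, Jun and Atf3 were higher and Fosl2 lower in NKO than in WT libraries. Jun was at 52.2 and 61.8 CPM in WT KLA and 146 and 167 CPM in NKO KLA libraries, a log2 difference of 1.46 ± 0.09. Its vehicle libraries were at 94.2 and 111 CPM in WT and 126 and 123 CPM in NKO, and the interaction of 1.18 ± 0.11 was called. Atf3 was at 604 and 578 CPM in WT KLA and 1056 and 1063 CPM in NKO KLA libraries (0.84 ± 0.05), the highest group mean of Atf3 in the series. Fosl2 was lower, at 124 and 138 against 74.6 and 85.9 CPM (-0.71 ± 0.07). With these, 2 of 10 members were called higher and 1 lower (21 and 19% of all genes). NKO KLA was also compared with the other unperturbed KLA libraries in a joint fit of 10864 tested transcripts. These controls, like WT KLA, carried stamps other than that of NKO KLA, so genotype and stamp cannot be told apart here either. Of these controls only Pgc1b_flox_KLA had Y-linked counts and almost no Xist, as NKO KLA did. Jun was called higher against the KLA, Pgc1b_flox_KLA and DMSO_KLA libraries, at 1.18 ± 0.09, 1.11 ± 0.09 and 1.10 ± 0.09. Atf3 was called against DMSO_KLA (0.82 ± 0.06) but had 0.56 ± 0.05 against KLA and 0.12 ± 0.05 against Pgc1b_flox_KLA. Fosl2 was lower against DMSO_KLA (-0.69 ± 0.08), was at -0.30 ± 0.08 against Pgc1b_flox_KLA and turned to 0.20 ± 0.08 against KLA. Fos, not called between WT KLA and NKO KLA libraries, was called higher in NKO KLA against KLA (0.80 ± 0.10) and DMSO_KLA (1.24 ± 0.11). Jund was called lower against Pgc1b_flox_KLA (-1.12 ± 0.06) and DMSO_KLA (-1.19 ± 0.06). Against Pgc1b_flox_KLA, Batf was also called higher (0.83 ± 0.09) and Fosl1 lower (-2.42 ± 0.60). Fosl1 was low in both groups, at 2.96 and 0.963 CPM in Pgc1b_flox_KLA and 0.445 and 0.282 CPM in NKO KLA libraries. In the joint fit 37.3 to 46.9% of transcripts were called against these 3 controls, with 16.2 to 23% called higher and 21.1 to 23.9% lower. The 4 stromal markers summed to 7.41 CPM in NKO KLA and 0.165 CPM in WT KLA libraries, and the 5 dendritic cell markers to 27.8 and 4.54 CPM, and their part in these values was not tested.

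With poly I:C, 0 of 10 members were called higher and 1 lower in NKO (3.01 and 2.92% of all genes). Batf was at 10.0 and 5.77 CPM in WT and 3.27 and 2.18 CPM in NKO libraries (-1.53 ± 0.26, adjusted p = 9.05e-06, edgeR). The groups did not overlap, but the WT libraries of Batf differed more from each other than the lower of them did from the higher NKO library. Junb was lower in NKO with poly I:C relative to vehicle in the interaction test (-0.69 ± 0.09), a call lost under the fold threshold without WT_Veh replicate 1 (-0.57). With RANKL, Atf3 was called higher in NKO (252 and 247 against 366 and 392 CPM, 0.60 ± 0.05), as 1 of 10 members higher and 0 lower (6.21 and 6.99% of all genes), but it was 0.55 without NKO_RANKL replicate 2, under the fold threshold. With IFNβ and IL4 edgeR called 0 of 10 members, as did DESeq2, and 2 and 3 members had an unadjusted p below 0.05. Of all genes, 1.86% were called higher and 1.94% lower with IFNβ and 1.9 and 2.33% with IL4.

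**Figure D3:**
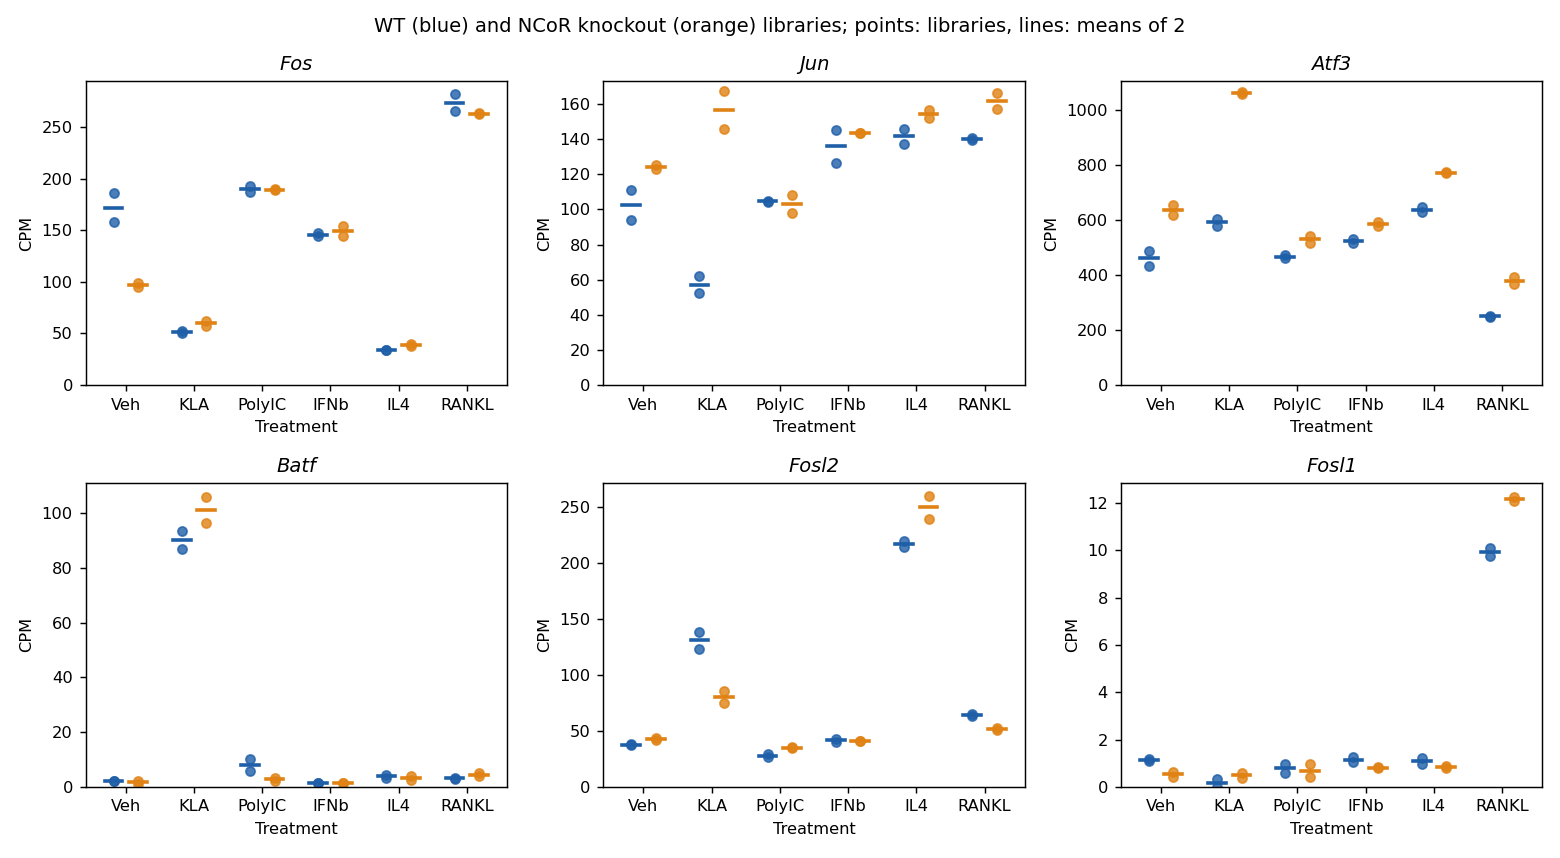
CPM (linear axis) of 6 members in WT (blue) and NKO (orange) libraries in 6 treatments, with a point per library and a line at the mean of 2. Fos is lower in NKO under vehicle, at 97.0 against 172 CPM, and differs from WT by less than the fold threshold elsewhere. Jun stands apart in KLA at 156 against 57 CPM.

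The HDAC3 inhibitor RGFP966 in the presence of KLA lowered both Batf genes. Of 9 members tested 0 were called higher and 2 lower (15.8 and 9.54% of all genes). Batf was at 75.5 and 88.5 CPM with KLA and at 40.7 and 49.5 CPM with RGFP966 and KLA, and fell by 0.87 ± 0.09 (adjusted p = 2.64e-14, edgeR). Batf2 went from 217 and 187 to 110.3 and 111 CPM and fell by 0.87 ± 0.07. Both stayed far above their vehicle libraries, which were at or below 1.45 CPM for Batf and 5.91 CPM for Batf2. Junb (-0.27 ± 0.06) and Atf3 (0.34 ± 0.06) were under the fold threshold. Fosl1, which was not tested, was at a mean of 0.889 CPM with RGFP966 and KLA and 0.089 CPM with KLA. This is at least 3.33-fold higher against a floor of 3 counts per library. RGFP966 replicate 2 carried a stamp later than the rest of its table, and both calls were kept without it.

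The libraries labelled Pgc1b_flox_Cre had lower levels of 5 members with KLA and of none under vehicle. With KLA 0 members were called higher and 5 lower of 10 (13.2 and 12.9% of all genes). Fos was at 49.9 and 47.2 CPM without Cre and at 7.28 and 8.44 CPM with Cre, and fell by 2.63 ± 0.13. Batf2 went from 210.7 and 192 to 45.1 and 47.7 CPM, and fell by 2.12 ± 0.10, and Jun went from 74.8 and 63.9 to 29.7 and 26.8 CPM (by 1.30 ± 0.11). In these 3 genes the libraries with Cre lay well under those without. Atf3 fell by 0.60 ± 0.06, but by 0.57 to 0.58 and so under the fold threshold without either Pgc1b_flox_KLA library or without Pgc1b_flox_Cre_KLA replicate 1, and by 0.40 with library totals. Batf fell by 1.04 ± 0.27, a call lost without either Pgc1b_flox_KLA library (adjusted p = 0.0969 and 0.146, edgeR) and with DESeq2 (adjusted p = 0.219). Under vehicle edgeR and DESeq2 called 0 members (0.164 and 0.139% of all genes higher and lower with edgeR), and 0 had an unadjusted p below 0.05. The difference between the Cre effect with KLA and under vehicle was called for 0 members in the higher and 4 in the lower direction, Fos, Jun, Batf2 and Atf3 (11.6 and 11.2% of all genes).

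With the TBK1 inhibitor, the KLA-treated cells had lower Batf2, Atf3, Fos, Jun and Batf and higher Fosl2 and Fosl1, which is 2 members called higher and 5 lower of 10 (15 and 18.3% of all genes). TBK1 is a kinase that phosphorylates interferon regulatory factors downstream of Toll-like receptors. Batf2 was at 196 and 206 CPM with KLA and at 8.22 and 9.47 CPM with KLA and the inhibitor, and fell by 4.51 ± 0.09. These libraries were near the vehicle libraries of 6.15 and 6.83 CPM, and the log2 difference from vehicle was 0.44 ± 0.16, under the fold threshold. Batf, in contrast, went from 99.2 and 105 to 58.9 and 56.8 CPM (by 0.82 ± 0.08) and remained 4.85 ± 0.14 above vehicle. Batf2 and Batf, which rose together with KLA, thus fell by different amounts, without a test of the difference between the 2 genes.

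Atf3 was at 555 and 585 CPM with KLA and at 62.4 and 71.2 CPM with the inhibitor, and fell by 3.10 ± 0.05. This was below its vehicle libraries of 418 and 426 CPM by 2.66 ± 0.05, and it was the lowest group mean of Atf3 in the series. Fos went from 25.6 and 22.5 to 6.02 and 6.20 CPM (by 1.98 ± 0.15) and Jun from 68.2 and 70.8 to 32.7 and 36.9 CPM (by 1.00 ± 0.08). Both had already fallen with KLA, and with the inhibitor they were 3.47 and 1.65 under vehicle on the log2 scale. Fosl2 rose further, from 123 and 124 to 201 and 210.5 CPM (0.74 ± 0.05). Junb (-0.28 ± 0.04) and Jund (0.32 ± 0.04) were under the fold threshold, and Junb turned to 0.083 with library totals. With library totals the Batf call was lost and Jund was called higher. Fosl1, at 6 and 9 counts with KLA and 26 and 17 with the inhibitor, was called higher, a call lost with DESeq2 (adjusted p = 0.0736) and without DMSO_KLA replicate 1 or TBK1i_KLA replicate 1. Against vehicle, the inhibitor libraries had 5 members called higher and 4 lower (26.8 and 30.5% of all genes). With any 1 library left out 7 or 8 members were called, since the Fosb call was lost without any of the 4 libraries and with DESeq2 (adjusted p = 0.144), and the Fosl1 call without TBK1i_KLA replicate 1 (adjusted p = 0.0586, edgeR).

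**Figure D4:**
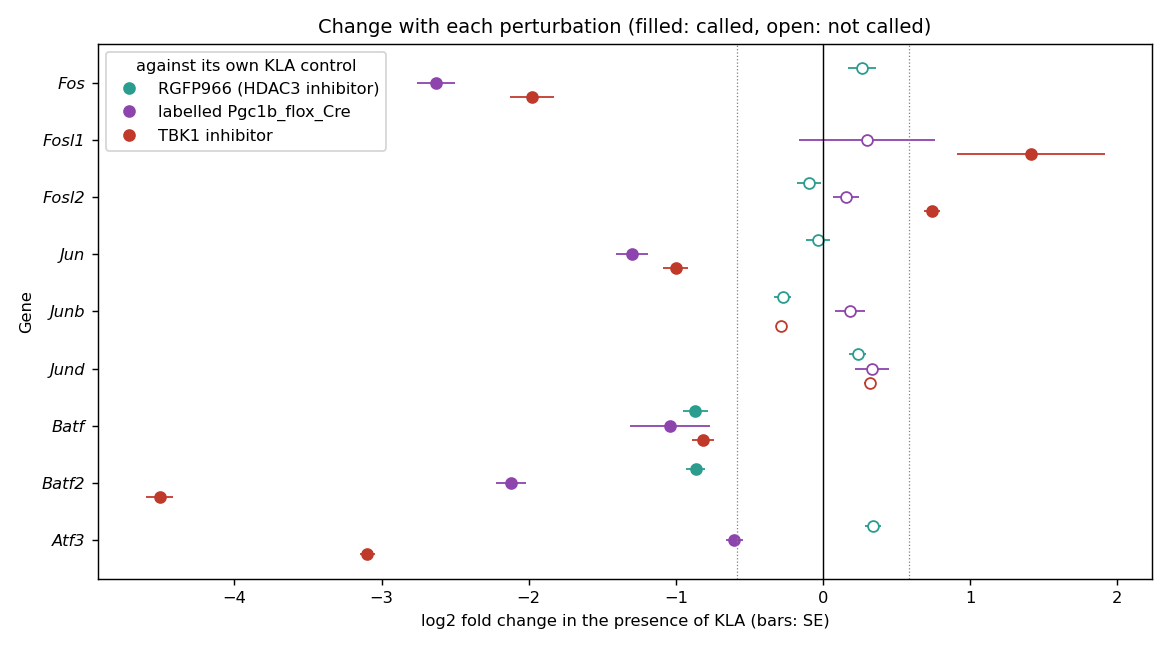
The log2 fold change (bars, SE) of 9 members in the presence of KLA with the HDAC3 inhibitor, in libraries labelled Pgc1b_flox_Cre and with the TBK1 inhibitor, each against its own KLA control, with filled points called, open points not called and dotted lines at a fold of 1.5. Batf lies between -0.82 and -1.04 in all 3, whereas Batf2 lies at -0.87, -2.12 and -4.51. Fosb is left out for its low counts, and Fosl1 has no point for the HDAC3 inhibitor, where it was not tested.

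Other genes of the pathway were described by 3 lists. No list was tested as standing apart, and the shares over all genes are set beside the counts. Of 27 other bZIP factors, 14 were called higher and 4 lower with KLA in the NCoR table (25.4 and 32.3% of all genes), with a median log2 difference of 0.74 against -0.14 over all genes. Cebpa, a myeloid differentiation factor, fell by 5.35 ± 0.11, and Jdp2, a Jun dimerization protein, and Cebpd, an acute phase regulator, rose by 4.13 ± 0.15 and 3.61 ± 0.10. For the bZIP list the corresponding counts were 10 and 5 in the RGFP966 table (27.9 and 32.2% of all genes), 12 and 5 in the Pgc1b table (22.8 and 25.7%) and 16 and 4 in the TBK1i table (29.6 and 29.3%). With IL4, 8 were higher and 1 lower (6.63 and 6.46% of all genes), led by Batf3, the third Batf gene, at 4.03 ± 0.19 and Nfil3 at 3.64 ± 0.09. With RANKL, Jdp2 rose by 4.77 ± 0.13 and was then 2.62 ± 0.10 lower in NKO than in WT libraries. Under vehicle, deletion of NCoR changed 1 of the 27, Creb5 (-0.59 ± 0.09), where 2.4% of all genes were called higher and 3.8% lower. The libraries labelled Pgc1b_flox_Cre with KLA had 4 higher and 9 lower (13.2 and 12.9% of all genes), led by Creb5 (-1.85 ± 0.10), Maff (1.85 ± 0.15) and Maf (-1.84 ± 0.06). With the TBK1 inhibitor 7 were higher and 5 lower (15 and 18.3% of all genes), led by Cebpa (2.21 ± 0.09), Creb5 (-1.76 ± 0.07) and Maf (-1.66 ± 0.04).

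The list of 19 MAP kinase genes held MAP kinases, kinases upstream of them and their effector kinases. Of these genes 6 were higher and 5 lower with KLA in the NCoR table, close to the shares of all genes given above. Mapkapk2, a p38 effector, rose by 3.52 ± 0.06 and Map3k8, which feeds the ERK branch, by 2.43 ± 0.09. Between NKO and WT libraries 0 of the 19 were called by edgeR under vehicle or with IFNβ, IL4 or poly I:C, where 1.86 to 3.8% of all genes were called in a direction, and 4 were higher and 2 lower with KLA (21 and 19%) and 0 higher and 1 lower with RANKL (6.21 and 6.99%). With the TBK1 inhibitor 7 were higher and 3 lower (15 and 18.3% of all genes), led by Map3k5 (2.63 ± 0.08) and Mapkapk3 (2.03 ± 0.08), and the same genes led in the libraries labelled Pgc1b_flox_Cre with KLA (2.39 ± 0.13 and 1.64 ± 0.10).

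Of 15 immediate early genes outside the AP-1 family, 8 were higher and 2 lower with KLA in the NCoR table (25.4 and 32.3% of all genes), led by Ier3 (3.41 ± 0.11), Nr4a2 (2.90 ± 0.33) and Ier2 (2.78 ± 0.08). Under vehicle 2 were higher and 2 lower in NKO (2.4 and 3.8% of all genes), among them Egr2 (1.36 ± 0.11) and Ier3 (-1.22 ± 0.17). With KLA 2 were higher and 6 lower in NKO (21 and 19% of all genes), and with RANKL 6 were higher and 0 lower (6.21 and 6.99%), led by Egr1 (1.12 ± 0.21). Whether these differ between treatments was not tested. With the TBK1 inhibitor 2 were higher and 5 lower (15 and 18.3% of all genes), led by Klf4 (-1.88 ± 0.18), Egr1 (-1.85 ± 0.22) and Nr4a2 (-1.78 ± 0.28).

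The genes most like each member across the 12 groups of the NCoR table were ranked by Pearson's r of group mean log2 CPM, as a description over 12 points that share libraries and stamps. Batf2 was most like Rnf135 (r = 0.998), Daxx and Rnf31. Junb was most like Ankrd17 (0.991), and Batf like Edn1 (0.986), Pycard and 1110032F04Rik. Fosl1 was most like Lbp (0.985), Adcy6 and Tubb1, and Jund like Myo1e (0.962), Sat1 and Trio. Fos was most like Herc3 (0.95), Fut4 and Elk3, Fosl2 like Hnrnpll (0.940), Tmem268 and Lipn, Atf3 like Cst3 (0.930), Lysmd4 and Golga2, and Jun like Ndufv3 (0.912), Rnaseh2c and Stub1.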

How the data were processed

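The deposited values were whole-number counts of reads in exons, made by the authors in 4 tables, 1 for each experiment, with STAR alignment to mm10 and HOMER counting of 1 RefSeq transcript per gene without normalization, per the file headers. The submitters' processing notes also name DESeq2. No strand option appears in the counting command whereas the study's methods describe strand-specific reads, so a member and an RNA on its opposite strand may not be told apart.

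edgeR 4.0.16 (R 4.3.3) was run on each table separately over all its groups, with filterByExpr, TMM scaling and a robust, 2-sided quasi-likelihood F-test, and tested 13407, 12196, 12205 and 12332 genes in the NCoR, RGFP966, Pgc1b and TBK1i tables. A call needed a Benjamini-Hochberg adjusted p below 0.05 over the genes tested and a fold above 1.5. The SE is that implied by the F statistic. With 2 libraries a group, an exact permutation test of 1 gene cannot reach 0.05. CPM were computed from the counts, and levels set across tables are a description, since tables were scaled separately. The fit was tested on simulated counts.

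The members and lists were chosen with earlier results of these data known. Named genes were all members, up to 3 called genes per list with the largest change and at least 5 CPM, and the 3 genes most like each member (Pearson's r of log2 of CPM plus 0.5), except that some genes most like Junb are not reported here. Alternatives were DESeq2 1.42.0 and its size factors, other filters, only the compared groups, a replicate block, each library left out, no fold threshold, other KLA controls and, added after the data were seen, library totals.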

Additional observations from a re-analysis of the deposited data

Results flagged for a closer look

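With 2 libraries per group, no library can be tested as standing apart from its group. Called interaction terms mark effects that differ between conditions. In the NCoR table they compare the knockout effect in a treatment with that under vehicle, and all share the same 4 vehicle libraries. For Fos the values on the log2 scale were 1.04 (KLA), 0.82 (poly I:C), 0.86 (IFNβ), 1.02 (IL4) and 0.77 (RANKL), where Fos was called lower in NKO than WT libraries under vehicle. The KLA interaction was also called for Jun at 1.18, Fosl1 at 2.59, Fosl2 at -0.90 and Jund at -0.64, in groups whose stamps differ between genotypes. The Fosl1 value rests on 2 and 0 counts in WT KLA libraries and lost its call with DESeq2 (adjusted p = 0.0653) and without WT_Veh replicate 1, NKO_Veh replicate 1, WT_KLA replicate 2 or NKO_KLA replicate 1 (highest adjusted p = 0.227, edgeR). The Jund value missed the fold threshold without WT_Veh replicate 1 or NKO_KLA replicate 1 (-0.55 and -0.58). Junb was at -0.69 for poly I:C and missed the fold threshold without WT_Veh replicate 1 (-0.57). With RANKL, Fosl1 was at 1.35 and Batf2 at 0.59, and both calls were lost without NKO_Veh replicate 1, WT_Veh replicate 2 or WT_RANKL replicate 1, that of Fosl1 also without WT_Veh replicate 1 and that of Batf2 also without NKO_Veh replicate 2 or NKO_RANKL replicate 1 (highest adjusted p = 0.136 and 0.186, edgeR). In the Pgc1b table the interaction of Cre and KLA was at -2.49 for Fos, -2.01 for Batf2, -1.45 for Jun and -0.71 for Atf3, the last at -0.48 and under the fold threshold with library totals. The causes were not tested.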

How the results depend on the processing

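Of 93 called values of members, 67 kept call and direction under every alternative in which they were tested, 26 lost the call under at least 1, and 2 of these reversed. A value not tested under an alternative was not counted as lost. With the filter on 5 CPM only 81 of the 93 were tested, and these kept their calls. The replicate numbers did not pair the libraries, since 0 pairs of groups had correlated deviations above 0.1, and a replicate block changed none of the 93 calls (WT KLA against vehicle gave 7 members under the block, Fos -1.74). Library totals reversed Jund with poly I:C (-0.027) and 26 values that were not called, among them, with KLA, Jund in the NCoR and RGFP966 tables (-0.20 and -0.25), Atf3 in the NCoR, RGFP966 and TBK1i tables (-0.37, -0.52 and -0.34) and Fosl2 in the RGFP966 and Pgc1b tables (-0.27 and -0.56), Fosl1 in the Pgc1b and TBK1i tables (-0.67 and -0.63), Fos, Jun and Atf3 with poly I:C (-0.50, -0.62 and -0.63), and Junb with the TBK1 inhibitor (0.083). Differences near 0 also turned: Atf3 with poly I:C at -0.00831 without a filter and -0.011 with one on 5 CPM, and Fosl1 with KLA in the Pgc1b table at -0.034 under the replicate block. With each library left out, Jun and Atf3 with poly I:C lay at -0.087 to 0.15 and -0.070 to 0.099, and Fosl1 with KLA at -1.04 to 0.69 in the Pgc1b table and -0.20 to 0.45 in the TBK1i table. The KLA libraries as control reversed Fosl2 in NKO KLA (0.20). DMSO_KLA as control gave 5 members called, where 41.7% of transcripts were called and Fosb was not tested. Members called were 7 for poly I:C, 8 for poly I:C against IFNβ and 0 for NKO with RANKL under library totals. Of 13407 genes, library totals called 1762 higher and 6930 lower for poly I:C and 1699 and 6089 for poly I:C against IFNβ. For NKO with RANKL they called 619 and 1247. For NKO under vehicle 1 was called with DESeq2 or a filter on 5 CPM. Without a fold threshold the members called were 5 (IFNβ), 7 (IL4), 8 (RANKL) and 9 (poly I:C against IFNβ) in WT, 6, 7, 5, 2, 2 and 4 for NKO against WT under vehicle, KLA, poly I:C, IFNβ, IL4 and RANKL, 4, 2, 2 and 6 for the interactions of poly I:C, IFNβ, IL4 and RANKL, and 6 for RGFP966. The share of all genes called without the threshold is not set beside these counts, so they are no result about the members. The same holds for the counts given here with DESeq2, a filter on 5 CPM, a replicate block or a library left out. Leaving out each library gave 1 to 2 members for IFNβ, 2 to 5 for IL4, 1 to 2 for NKO under vehicle, 0 to 1 for NKO with RANKL, 3 to 5 for the KLA interaction and for the libraries labelled Pgc1b_flox_Cre with KLA, 1 to 3 for the RANKL and poly I:C interactions and 7 to 8 for the TBK1 inhibitor against vehicle. Within the NCoR table, the group with the highest level of each member by TMM became, by library totals, 348 CPM for Fos and 14.45 for Fosl1 with RANKL, 283 for Fosl2 with IL4, 192 for Jun with RANKL, 590.1 for Junb and 70.3 for Batf in NKO KLA, 303 for Jund and 229 for Batf2 with poly I:C and 736 for Atf3 in NKO KLA, and by DESeq2 size factors 866 for Junb and 1079 for Atf3.

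Scaling also moved the share of called genes that were higher from 45 to 73.6% with the TBK1 inhibitor and from 50.6 to 68.2% in libraries labelled Pgc1b_flox_Cre with KLA. Fosb, and Fosl1 outside the RANKL groups, are limited by depth, with 3 counts at 0.179 to 0.36 CPM.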
